A study of Mus musculus with 21 samples.

Results

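The 8 interferon regulatory factor genes *Irf1*, *Irf2*, *Irf3*, *Irf4*, *Irf5*, *Irf7*, *Irf8* and *Irf9* were followed over 15 QuantSeq libraries of mouse lymphoid progenitors (LPs). They were taken by gene symbol from a table of 55421 genes, together with the ChIP-seq peaks that name one of them as nearest gene, which are 6 of 5898 Zbtb1 peaks and 12 of 6077 Cbfa2t3 peaks. The family was chosen with results of these data in view, because *Irf8* was lower after sgLmo2 than in sgControl, so that difference is given as a description. All 8 were tested, together with the other genes whose mean level was over 1 TPM, 11554 in all.

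The cells were an *Ebf1*-deficient LP line labelled C57BL6/J, cultured on OP9 stromal cells with SCF, IL-7 and Flt3L, and every group shared this background. Cas9-GFP cells were given 2 pooled sgRNAs per target, which was *Lmo2* in sgLmo2, *Zbtb1* in sgZbtb1, *Cbfa2t2* in sgCbfa2t2, *Cbfa2t3* in sgCbfa2t3 and luciferase in sgControl, and the marked cells were sorted 5 days later without Notch stimulation. There were 3 replicate libraries in each of the 5 groups, and ChIP-seq was done on 2 replicates per factor in LPs without sgRNA. The line is an *in vitro* model blocked at the progenitor stage, and a sorted pool can hold cells in which the target gene was not cut.

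Interferon regulatory factors are transcription factors with a shared DNA-binding domain that recognises GAAA repeats. Irf3, Irf5 and Irf7 act downstream of pattern recognition receptors, Irf9 is the DNA-binding part of the complex that type I interferon activates, and Irf1 and Irf2 bind the same elements as activator and antagonist. Irf4 and Irf8 bind weakly on their own and pair with ETS factors such as PU.1, and they are best known for steering lymphoid, dendritic and monocytic cell fates. In lymphoid progenitors *Irf8* is part of the program that precedes B-cell commitment, and its loss in mice expands granulocytes at the cost of dendritic cells and monocytes.

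The libraries held 1705416 to 2095447 reads, and 3 reads, the smallest count read as a level here, were worth 1.43 to 1.76 TPM. Values called TPM were reads scaled to the same total in every library, each mRNA being counted near its 3′ end, so transcript length does not enter and levels of different genes are set side by side on that scale. The 12 lymphoid progenitor markers summed to 2420 to 2749 TPM in every library, against 3.44 to 14.7 TPM for 12 OP9 stroma markers. Single markers moved within that sum, since in sgZbtb1 *Ly6d* (log2 fold change -2.40) and *Kit* (-1.14) fell while *Cd34* (0.53) and *Cd93* (0.52) rose, and *Ly6d* also fell in sgCbfa2t3 (-1.43) and sgCbfa2t2 (-0.69). Of 12 myeloid markers 6 stood at 3 reads or fewer in all libraries, *Lyz2*, *Elane*, *Ctsg*, *Cd14*, *S100a8* and *S100a9*. The others had sgControl means of 110 TPM for *Adgre1*, 63.1 for *Fcgr3*, 9.31 for *Itgam*, 5.43 for *Mpo*, 4.84 for *Prtn3* and 1.17 for *Csf1r*. None of the 4 targeted mRNAs fell beyond the spread of the libraries. *Zbtb1* was at 106 ± 9.91 TPM in sgZbtb1 against 61.7 ± 5.51 TPM in sgControl, *Cbfa2t3* at 350 ± 12.9 in sgCbfa2t3 against 190.2 ± 18.7, *Cbfa2t2* at 21.9 ± 4.85 in sgCbfa2t2 against 11.8 ± 0.698, and *Lmo2* at 16.3 ± 7.99 in sgLmo2 against 18.4 ± 4.17 (SD, n = 3 each). Reads from the 3′ end do not show whether the coding sequence was cut, so they do not check for the cut itself. The mRNAs of *Zbtb1*, *Cbfa2t2* and *Cbfa2t3* each had their highest group mean under their own sgRNA.

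The regions bound near *Irf8* are shown first, since this gene carried the most peaks of the family. Each window is 200 bases at the centre of a peak on mm10 (GRCm38), plus strand, named by its distance from the annotated *Irf8* start. Capitals mark the motifs searched on either strand. These were TGTGGT for the Runx core, TGGTGGT for the core of the Zbtb7c motif, and the E-boxes spelled CAGCTG or else spelled CATCTG. They also included the motif AGATAA of GATA factors, the PU.1 motif GAGGAAGT, the Stat element TTCNNNGAA, the interferon-stimulated response element and the ETS-IRF composite. The last pair was searched as GAAA, then any 2 bases, then GAAA, and as GGAA, then any 2 bases, then GAAA. The motif TGTGGT can overlap with TGGTGGT, as can these last elements with each other.
*Irf8* +4 kb, Cbfa2t3, chr8:120740633-120740832: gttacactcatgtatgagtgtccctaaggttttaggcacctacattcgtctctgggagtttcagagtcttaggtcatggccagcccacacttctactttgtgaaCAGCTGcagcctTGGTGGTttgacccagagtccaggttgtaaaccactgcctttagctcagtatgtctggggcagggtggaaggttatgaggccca
*Irf8* +40 kb, Zbtb1, chr8:120776642-120776841: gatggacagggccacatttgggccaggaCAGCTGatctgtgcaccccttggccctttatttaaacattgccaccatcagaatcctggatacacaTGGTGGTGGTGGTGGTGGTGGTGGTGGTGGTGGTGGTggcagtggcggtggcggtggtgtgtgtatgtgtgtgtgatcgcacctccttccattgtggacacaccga
*Irf8* +41 kb, Cbfa2t3, chr8:120777214-120777413: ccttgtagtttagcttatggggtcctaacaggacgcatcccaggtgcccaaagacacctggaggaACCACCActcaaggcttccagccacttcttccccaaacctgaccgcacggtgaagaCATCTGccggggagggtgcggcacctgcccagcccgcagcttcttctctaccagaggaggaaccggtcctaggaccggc
*Irf8* +56 kb, Cbfa2t3, chr8:120792748-120792947: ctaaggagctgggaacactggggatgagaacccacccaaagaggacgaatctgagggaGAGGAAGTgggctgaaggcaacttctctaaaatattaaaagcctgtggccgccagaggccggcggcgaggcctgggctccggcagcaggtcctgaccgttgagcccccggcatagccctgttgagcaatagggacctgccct
*Irf8* +147 kb, Zbtb1, chr8:120883416-120883615: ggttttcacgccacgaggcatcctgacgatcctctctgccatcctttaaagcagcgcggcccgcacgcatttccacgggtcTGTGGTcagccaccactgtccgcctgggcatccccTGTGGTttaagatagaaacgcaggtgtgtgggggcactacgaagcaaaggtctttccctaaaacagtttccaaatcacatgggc

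The family was led by *Irf2* and *Irf8* in control progenitors. In sgControl, the level was 163 ± 13.2 TPM for *Irf2* and 116 ± 4.74 TPM for *Irf8*, followed by 72.0 ± 4.24 TPM for *Irf1*, 49.7 ± 1.78 TPM for *Irf3*, 34.3 ± 2.66 TPM for *Irf9* and 14.9 ± 3.54 TPM for *Irf5* (SD, n = 3). *Irf7* at 3.68 ± 1.32 TPM and *Irf4* at 1.75 ± 1.56 TPM closed the order. The libraries of each gene lay apart from those of the next gene except for *Irf7* and *Irf4*, whose values overlapped. The order changed at the top in sgZbtb1, where *Irf8* at 153 ± 14.1 TPM stood first with libraries that overlapped those of *Irf2*, and in sgLmo2, where *Irf8* came after *Irf2* and *Irf1*, overlapping the libraries of *Irf1* and *Irf3*.

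**Figure D1:**
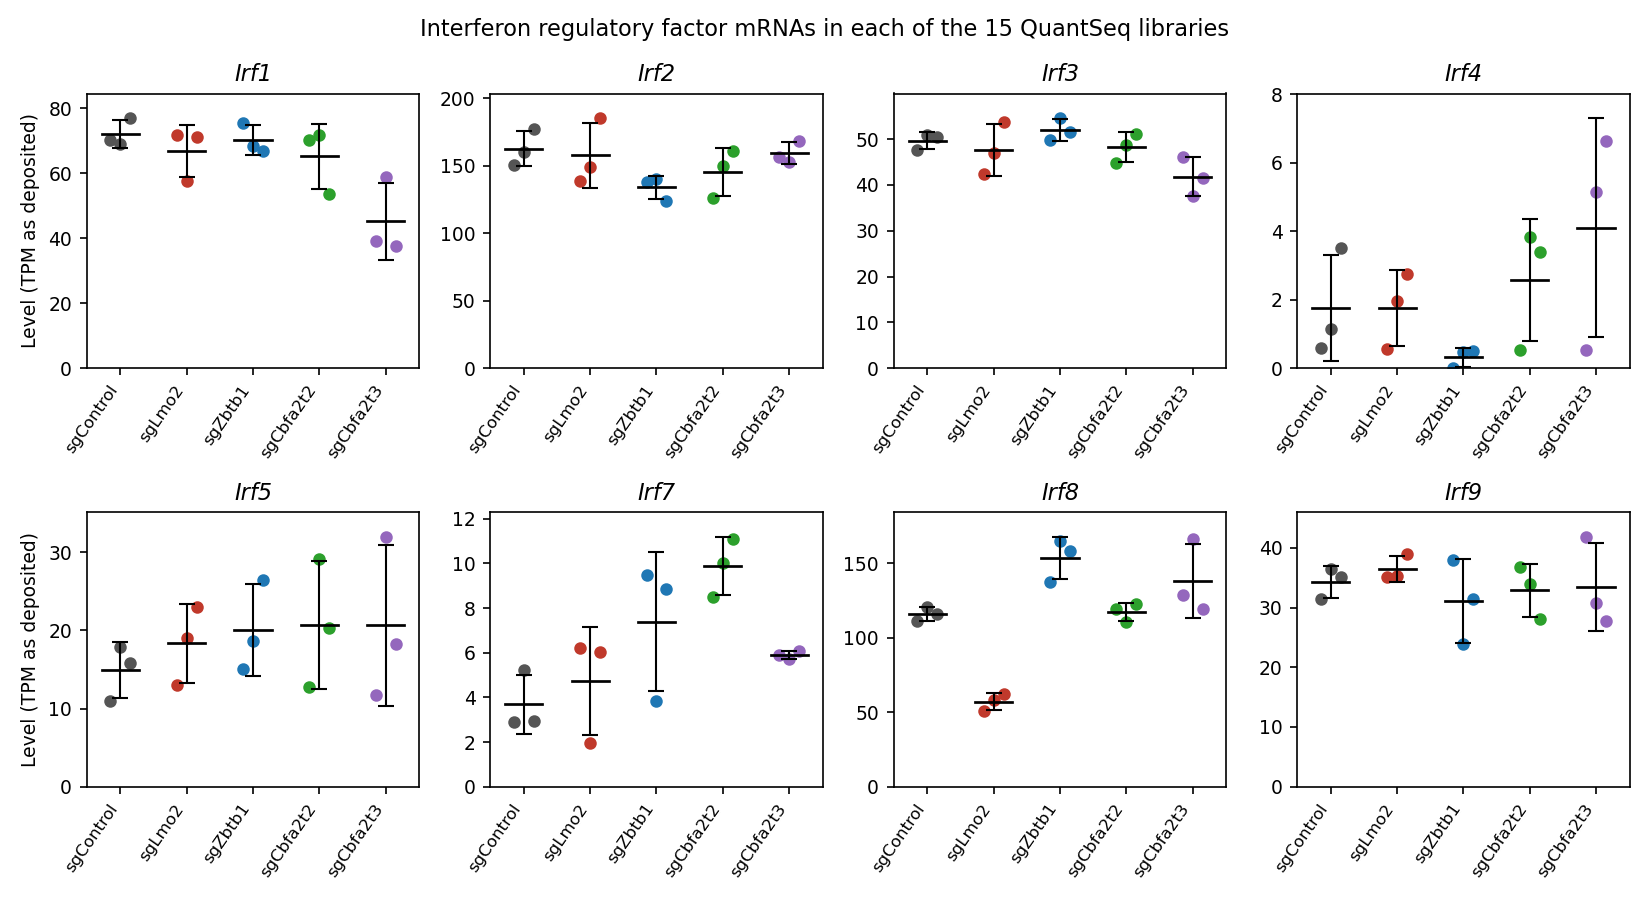
Level of each interferon regulatory factor mRNA (TPM as deposited, y axis from 0) in the 5 groups; points are libraries, bars the mean and SD of 3. The sgLmo2 libraries of *Irf8* lie at 50.9 to 61.9 TPM, under all 12 other libraries, and those of *Irf1* in sgCbfa2t3 at 37.7 to 58.8 TPM.

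*Irf8* (ENSMUSG00000041515, chr8:120736358-120756694 on mm10, plus strand), the partner of PU.1 in myeloid and B-lineage precursors, was measured at 111, 120.4 and 116 TPM in the sgControl libraries and at 50.9, 58.2 and 61.9 TPM in the sgLmo2 libraries. All 3 sgLmo2 values lay below every other library of the series. The mean after sgLmo2 was 0.493 times that of sgControl, a log2 fold change of -1.01 (SE 0.13) on the log2(TPM + 1) scale. No p is given for this difference, which chose the gene. *Irf8* was the 1 member called in sgLmo2 against sgControl at an adjusted p under 0.05, a threshold that 2 of 11554 genes (0.0173%) passed, and since the choice rests on that contrast nothing is read from the count. In bulk RNA, fewer cells that express a gene and less RNA per cell cannot be told apart. The summed level of the 12 myeloid markers was 245 to 286 TPM in sgLmo2 against 156 to 230 TPM in sgControl. *Adgre1* made up most of it, with 152 to 208 TPM in sgLmo2 and 82.5 to 134 TPM in sgControl. Of the 5 myeloid markers tested, *Adgre1* and *Fcgr3* had higher means in sgLmo2, and *Mpo*, *Itgam* and *Prtn3* lower ones. Their median log2 fold change was -0.63, and that of all genes 0.01. The part of these markers in the *Irf8* level was not tested.

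Against the other sgRNAs, *Irf8* in sgLmo2 was 0.372 times the sgZbtb1 mean, 0.486 times the sgCbfa2t2 mean and 0.413 times the sgCbfa2t3 mean, and its libraries overlapped none of theirs. Without overlap were 2 of 8 members against sgZbtb1 (*Irf8*, and *Irf4* by TPM although both groups held a library with 1 read, beside 21.8% of all genes), 2 of 8 against sgCbfa2t2 (*Irf7* and *Irf8*, 11.7%) and 1 of 8 against sgCbfa2t3 (*Irf8*, 14.4%). Against sgControl it was 1 of 8, *Irf8*, beside 10.6% of all genes, and the sgLmo2 libraries of the other 7 members overlapped sgControl. These 4 counts hold the *Irf8* values that chose the family, so nothing is read from them. Their mean levels were 0.929 times sgControl for *Irf1*, 0.969 for *Irf2*, 0.960 for *Irf3*, 1.23 for *Irf5*, 1.29 for *Irf7* and 1.06 for *Irf9*. *Irf4* was at 1.75 TPM in both groups, near the value of 3 reads.

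The sgZbtb1 libraries held 137, 164 and 158 TPM of *Irf8*, all above the 3 sgControl libraries, which are the same that the sgLmo2 difference used. The mean was 1.33 times that of sgControl, with a log2 fold change of 0.40 (SE 0.13, 95% interval 0.14 to 0.66), and missed the threshold with an adjusted p of 0.0585 in limma. This call depended on the tool, since edgeR gave an adjusted p of 0.0305 and DESeq2 0.0364 on the recovered reads, and 5 of 8 alternative settings placed it past the threshold. None of the 6 fits that left out 1 library did, with adjusted p from 0.0509 to 0.214. *Irf2*, the antagonist of Irf1 at shared elements, was at 138, 140.1 and 124 TPM in sgZbtb1 against 151, 160.3 and 177 TPM in sgControl. The groups did not overlap, but the log2 fold change of -0.28 (SE 0.12) had an adjusted p of 0.184 in limma. *Irf4* lay between 0 and 0.491 TPM in all 3 sgZbtb1 libraries, under the value of 3 reads, as did 2 of the 3 sgControl libraries, so no fold is given. *Irf1*, *Irf3*, *Irf5*, *Irf7* and *Irf9* had overlapping libraries.

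Taking the 8 members in sgZbtb1 together, limma called 0 of them against sgControl where 4.79% of all genes tested were called, while edgeR and DESeq2 each called 1, *Irf8*. At an unadjusted p under 0.05 limma counted 2 of 8, *Irf2* and *Irf8*, beside 17.6% of all genes. The TPM values did not overlap for 3 of 8 members, beside 22.9% of all genes. They were *Irf2*, *Irf8* and *Irf4*, and for *Irf4* both groups held a library with 1 read, so that its gap is one of library size. The median log2 fold change of the members was 0.01, and that of all genes -0.03. Summed myeloid markers were lower in these libraries, at 118 to 147 TPM. *Adgre1* carried most of this, at a mean of 48.0 TPM against 110 TPM in sgControl, while *Fcgr3* was at 69.1 against 63.1 TPM. The part of these markers in the *Irf8* level was not tested.

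After sgCbfa2t3, *Irf1* (ENSMUSG00000018899, chr11:53770014-53778374, plus strand), an activator of interferon-responsive and antigen presentation genes, was the member that fell. It was at 39.1, 58.8 and 37.7 TPM, against 70.3, 68.9 and 76.8 TPM in sgControl, and all 3 values lay under the sgControl libraries. The mean was 0.628 times that of sgControl, and the log2 fold change was -0.69 (SE 0.17, 95% interval -1.02 to -0.35, limma adjusted p = 0.0277). It was 1 of 8 members called, beside 0.537% of all genes, or 0.407% in this direction. The call was lost with edgeR (adjusted p = 0.0549), with DESeq2 it held (0.0323). sgCbfa2t3 replicate 2 stood apart from the other libraries of its group, and without it the log2 fold change was -0.89 with an adjusted p of 0.00464. The call was lost when any 1 of the 3 sgControl libraries, sgCbfa2t3 replicate 1 or sgCbfa2t3 replicate 3 was left out, with log2 fold changes as near 0 as -0.57 and adjusted p up to 0.217.

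The same replicate 2 of sgCbfa2t3 held the highest *Irf8* value of the series, 166 TPM, beside 129 and 119 TPM in replicates 1 and 3, and the highest *Irf5* value, 32.0 TPM, beside 11.8 and 18.3 TPM. *Irf8* had a log2 fold change of 0.24 (95% interval -0.02 to 0.50, adjusted p = 0.523) against sgControl, which became 0.10 without that library. *Irf3*, the constitutive factor that viral RNA and DNA sensors activate, was at 46.1, 37.7 and 41.5 TPM against 47.6, 50.9 and 50.4 TPM in sgControl, without overlap and with a log2 fold change of -0.25 (adjusted p = 0.663). *Irf7*, the interferon-inducible amplifier of type I interferon production, was at 5.90, 5.71 and 6.09 TPM, above the sgControl values of 2.90, 5.21 and 2.93 TPM, with a log2 fold change of 0.59 (95% interval -0.29 to 1.48, adjusted p = 0.684). The nearest libraries of the 2 groups differed by 1 read, 10 against 9. In all, libraries of 3 of 8 members did not overlap sgControl, beside 15.8% of all genes.

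In sgCbfa2t2, limma called 0 of 8 members against sgControl, beside 0.147% of all genes, and edgeR and DESeq2 called 0 as well. At an unadjusted p under 0.05 there was 1 of 8, *Irf7*, beside 9.56% of all genes. *Irf7* was at 8.51, 10.0 and 11.1 TPM, above all 3 sgControl libraries, and its mean was 2.68 times theirs with a log2 fold change of 1.25 (SE 0.44, adjusted p = 0.310 in limma). The gene had between 4 and 23 reads in a library. It was the 1 member whose libraries did not overlap sgControl, beside 13.7% of all genes. *Irf8* was at 119, 110.2 and 122 TPM, and its log2 fold change of 0.02 had a 95% interval of -0.24 to 0.28.

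**Figure D2:**
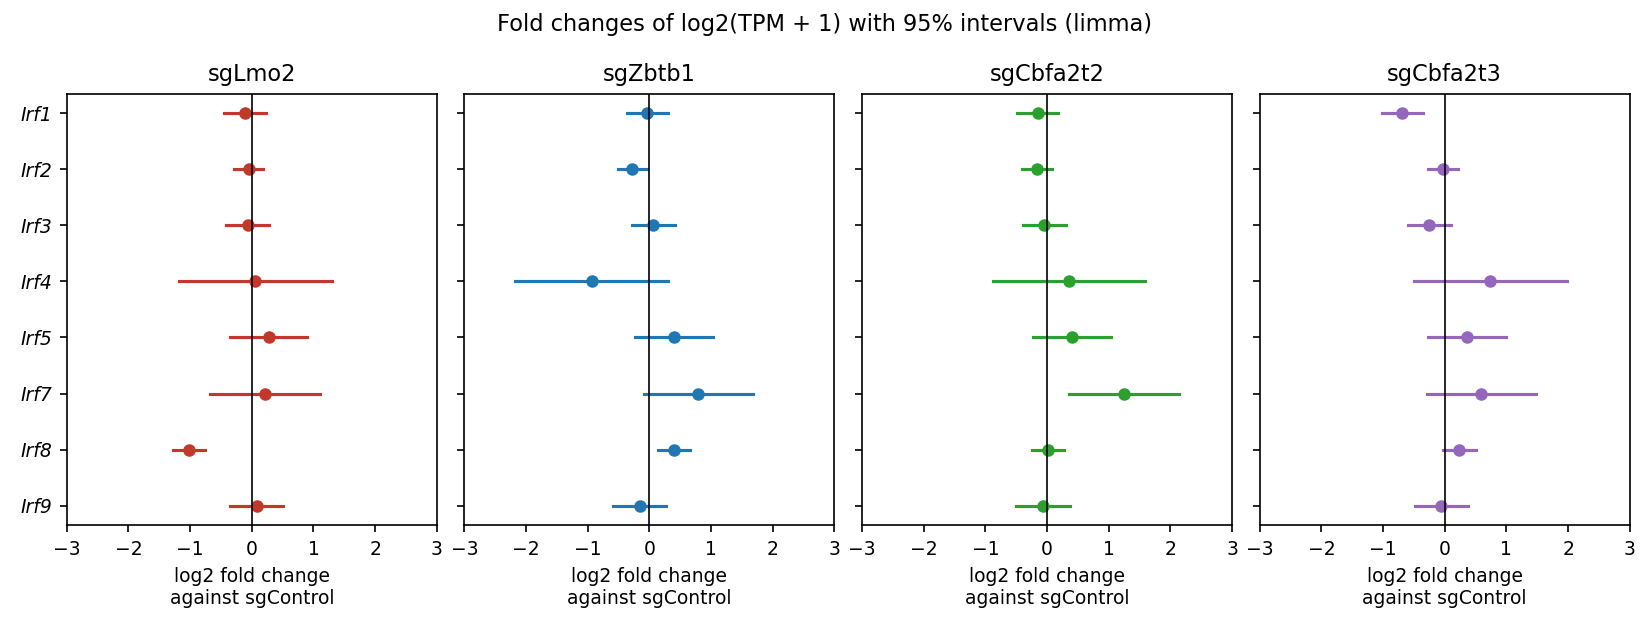
Log2 fold change of each member against sgControl (x axis, log2(TPM + 1) scale) for the 4 sgRNAs, with 95% intervals from limma; the 4 panels share the sgControl libraries. *Irf8* in sgLmo2 lies at -1.01 and *Irf1* in sgCbfa2t3 at -0.69, and the intervals of *Irf4* and *Irf7* are the widest.

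In comparisons among the 3 other sgRNAs the differences came from neither the sgControl nor the sgLmo2 libraries, while the SE, intervals and limma p-values took the spread of all 5 groups. *Irf8* was higher in sgZbtb1 than in sgCbfa2t2 in all 3 libraries, with a log2 fold change of 0.38 (95% interval 0.12 to 0.64) that missed the threshold (limma adjusted p = 0.120). An exact permutation test on the TPM values, two-sided, gave p = 0.1, the smallest that 3 against 3 allows. Between sgZbtb1 and sgCbfa2t3 the log2 difference was 0.16 (95% interval -0.10 to 0.42, adjusted p = 0.760, exact permutation p = 0.4). Between sgCbfa2t2 and sgCbfa2t3 it was -0.22 (95% interval -0.48 to 0.04, adjusted p = 0.850, exact permutation p = 0.3). With only the 6 libraries of each pair in the fit, the adjusted p was 0.0794, 0.726 and 0.901 in the same order. The intervals of these pairs leave room for differences of up to 0.64 on the log2 scale. Between sgZbtb1 and sgCbfa2t2, limma, edgeR and DESeq2 called 0 of 8 members, beside 2.27% of all genes in limma. An unadjusted p under 0.05 was reached by 2 of 8 (*Irf4* and *Irf8*, beside 12.7%), which were also the members without overlap in TPM (17.9%), although both groups held a library with 1 read of *Irf4*. Between sgCbfa2t2 and sgCbfa2t3 the 3 tools called 0 as well, beside 0.0779% in limma, with *Irf1* alone at an unadjusted p under 0.05 (6.20%) and *Irf7* alone without overlap (10.7%).

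*Irf1* was the 1 of 8 members called between sgZbtb1 and sgCbfa2t3, beside 1.13% of all genes, with 75.4, 68.4 and 66.8 TPM in sgZbtb1 and a log2 fold change of 0.65 (SE 0.17, adjusted p = 0.0267 in limma). The sgCbfa2t3 libraries are the same as in the *Irf1* comparison with sgControl. With means of 70.2 TPM in sgZbtb1 and 72.0 TPM in sgControl, this call is not a separate observation. The TPM values did not overlap for 4 of 8 members, beside 14.6% of all genes. *Irf1* and *Irf3* were higher in sgZbtb1 and *Irf2* lower, and *Irf4* again had a library with 1 read in both groups. The *Irf1* call was lost in 5 of 6 fits that left out 1 library, with adjusted p up to 0.193, and held without sgCbfa2t3 replicate 2 (log2 fold change 0.85, adjusted p = 0.00290). It was also lost without a filter on low values (adjusted p = 0.0886). These fits were chosen after seeing the data. At an unadjusted p under 0.05 there were 3 of 8 members in this comparison (*Irf1*, *Irf2* and *Irf4*), beside 10.0% of all genes.

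*Irf5*, which acts downstream of Toll-like receptors in myeloid and B cells, ranged from 11.03 to 32.0 TPM over the 15 libraries, and its 4 means after gene-targeting sgRNAs were 1.23 to 1.39 times that of sgControl with overlapping libraries in each case. *Irf9* ranged from 23.9 to 41.8 TPM and did not separate any group from sgControl. *Irf4*, the plasma cell and activated lymphocyte factor, had 59 reads in all 15 libraries together, with 3 reads or fewer in 8 of them. Its 2 highest values, 6.65 and 5.14 TPM, both came from sgCbfa2t3, whose remaining library was at 0.536 TPM. Several members share bases with another annotated gene, *Irf9* with *Rnf31* on the same strand, and *Irf1*, *Irf2*, *Irf3*, *Irf5* and *Irf7* with genes on the opposite strand, and how reads were assigned there is not given in the sources used here. *Irf8* lies within *Gm20388*, which was listed at 0 in every library.

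The genes whose levels were most like those of *Irf8* over the 15 libraries were *Pou2f2*, *Rrp9*, *Inka1*, *Tmem119* and *Oxsm*, taken by Pearson correlation of log2(TPM + 1) among genes with a mean above 10 TPM. *Pou2f2*, which encodes the octamer-binding factor Oct-2 of B cells, had r = 0.931 (Spearman 0.864), and the others had r between 0.850 and 0.872. The sgLmo2 libraries form a group of their own on this scale, and without them, over 12 libraries, r was 0.811 for *Pou2f2*, 0.809 for *Tmem119*, 0.769 for *Rrp9*, 0.710 for *Oxsm* and 0.509 for *Inka1*. *Pou2f2* had a mean of 26.8 TPM in sgLmo2, 46.9 in sgControl, 46.3 in sgCbfa2t2, 59.1 in sgCbfa2t3 and 71.1 in sgZbtb1, the same order of groups as *Irf8* apart from sgControl and sgCbfa2t2, which were close for both genes. These genes were picked for the likeness from 8157, and the points share libraries and groups, so the values are descriptions.

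**Figure D3:**
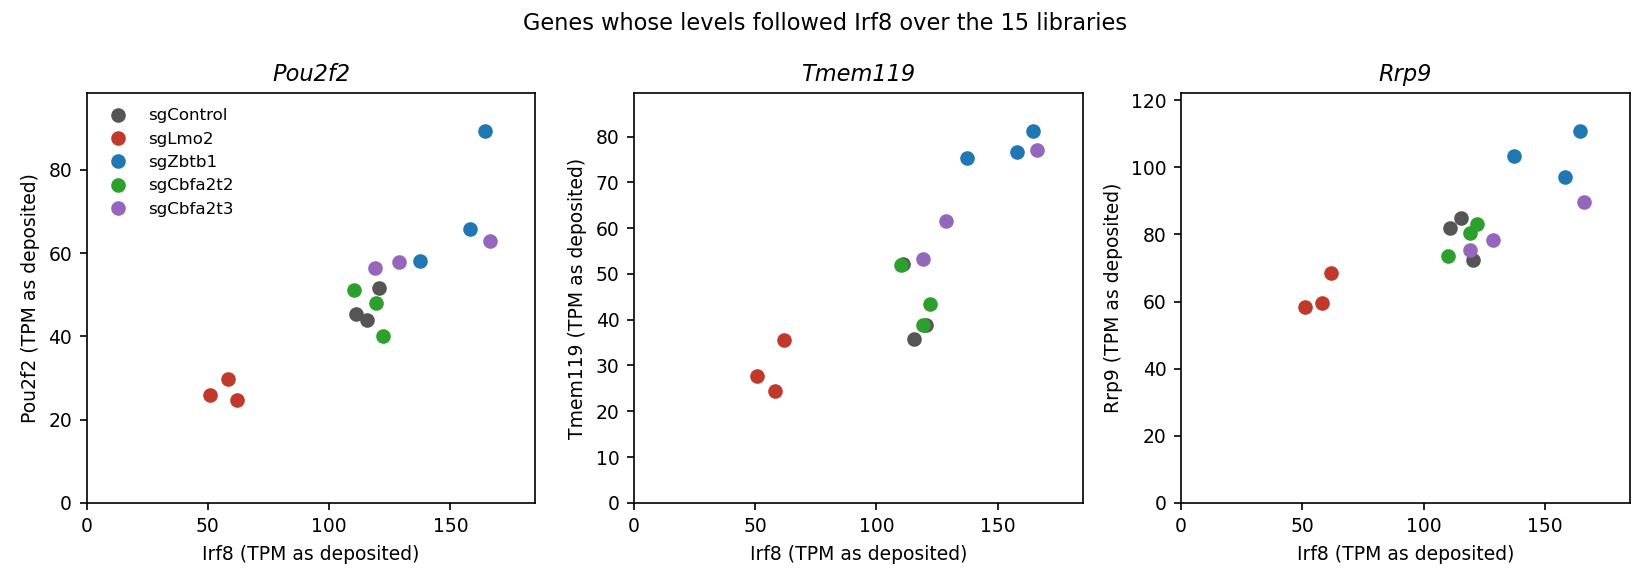
Level of *Pou2f2*, *Tmem119* and *Rrp9* (y axes) against *Irf8* (x axis), both in TPM as deposited, 1 point per library colored by group; these 3 of the 5 genes had the highest r without sgLmo2. The sgLmo2 libraries sit at the lower left, and those of sgZbtb1 with 1 library of sgCbfa2t3 at the upper right.

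In the peak lists, *Irf1*, *Irf7* and *Irf8* were named by Zbtb1 peaks and *Irf1*, *Irf2* and *Irf8* by Cbfa2t3 peaks, each 3 of 8 members, where 26.8% and 20.5% of the genes tested were named. Both factors named *Irf1* and *Irf8*, 2 of 8, and 11.3% of the genes tested. *Irf8* had 3 Zbtb1 peaks, a number that 1.61% of the genes tested reached, and 8 Cbfa2t3 peaks, a number that 0.138% of the genes tested, 16 of 11554, reached. The number of peaks a gene is given also grows with the distance to its neighbours, and the part of this was not tested. *Irf3*, *Irf4*, *Irf5* and *Irf9* were nearest to no peak of either list.

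The 8 Cbfa2t3 peaks of *Irf8* spread from -21 kb to +62 kb of its start (chr8:120736358, plus strand), all in introns of *Gm20388*, a gene model that spans the whole locus. The peak at +4 kb also met an annotated exon of *Irf8*, in a retained-intron transcript, and that at +15 kb an *Irf8* intron. The tallest, chr8:120777124-120777502 at +41 kb, had a normalized peak score of 78.6, higher than 87.3% of the Cbfa2t3 list, and the others had scores from 27.0 to 44.5. The 3 Zbtb1 peaks, at +40 kb, +57 kb and +147 kb, scored 24.0, 25.3 and 26.8, under the median of 28 of the Zbtb1 list. At +57 kb the Zbtb1 peak chr8:120792824-120793194 overlapped the Cbfa2t3 peak chr8:120792658-120793036 by 213 bases, and at +40 kb the centres of the 2 factors' peaks were 572 bases apart without overlap. Segments about +41 kb and +56 kb downstream of the *Irf8* start are known as enhancers of this gene in dendritic cell and monocyte progenitors.

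**Figure D4:**
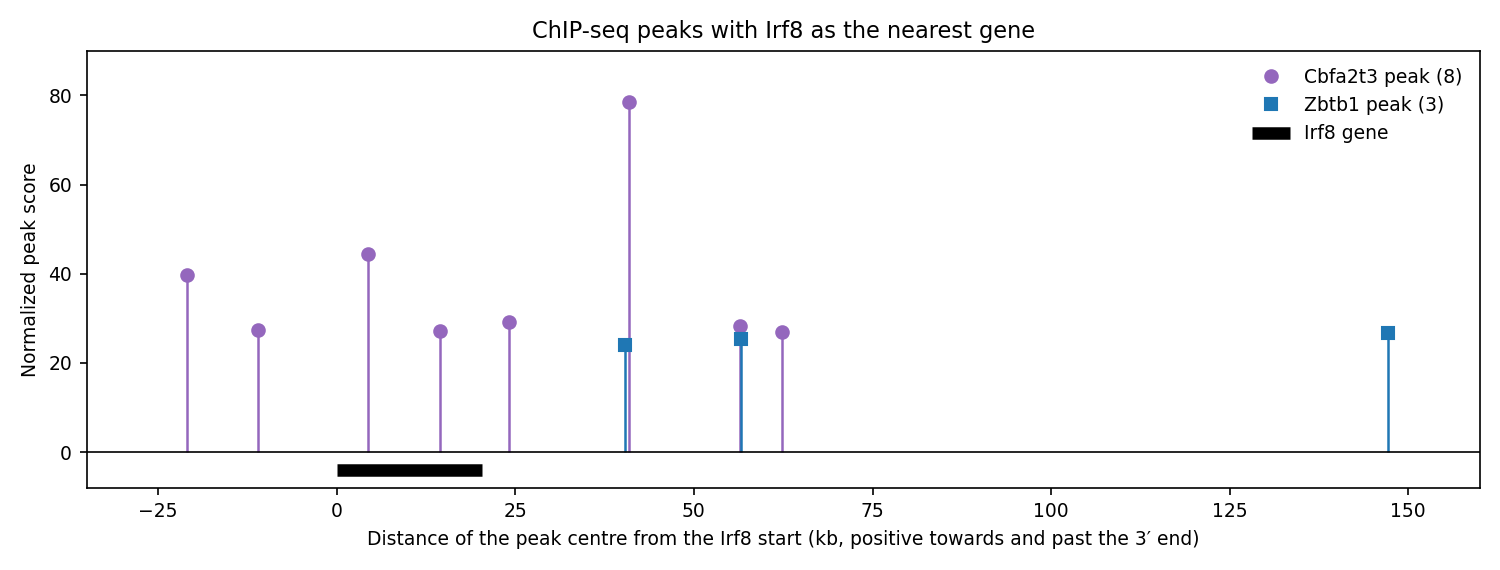
Normalized score (y axis) of each peak that names *Irf8* as nearest gene against the distance of its centre from the *Irf8* start (x axis, kb), with 8 Cbfa2t3 peaks as circles, 3 Zbtb1 peaks as squares and the gene as a bar. The Cbfa2t3 peak at +41 kb is the tallest, at 78.6, and the pair at +56 to +57 kb is the place where both factors' peaks overlap.

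The windows printed above differ in the motifs they hold. The Cbfa2t3 window at +4 kb holds CAGCTG, as do 47.4% of all 6070 Cbfa2t3 windows of this length, and TGGTGGT, as do 7.02%. The window of the tallest Cbfa2t3 peak, at +41 kb, holds CATCTG, found in 30.5% of Cbfa2t3 windows, and 1 TGGTGGT on the opposite strand. At +56 kb the Cbfa2t3 window holds GAGGAAGT, found in 9.52% of them. The Zbtb1 window at +40 kb holds CAGCTG and runs through a TGG simple repeat that gives 11 overlapping matches of TGGTGGT, a motif in 15.8% of all 5890 Zbtb1 windows. Reads in such a repeat can map ambiguously, and how much of this peak rests on the repeat was not tested. The Zbtb1 window at +147 kb holds 2 copies of TGTGGT, a motif in 41.3% of Zbtb1 windows. None of the 18 windows of the family's peaks held the interferon-stimulated response element, which was in 1.49% of Zbtb1 and 2.54% of Cbfa2t3 windows, or the ETS-IRF composite, which was in 1.54% and 3.26%.

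*Irf1*, the member that fell after sgCbfa2t3, had peaks of both factors at its start and at +25 kb, in an intron of *Gm12216*. The promoter is shown as the 250 bases before the RefSeq start (GRCm38.p6, plus strand) with capitals for TGTGGT, the Stat element and both IRF elements, and the +25 kb window as above.
*Irf1* promoter, chr11:53769764-53770013: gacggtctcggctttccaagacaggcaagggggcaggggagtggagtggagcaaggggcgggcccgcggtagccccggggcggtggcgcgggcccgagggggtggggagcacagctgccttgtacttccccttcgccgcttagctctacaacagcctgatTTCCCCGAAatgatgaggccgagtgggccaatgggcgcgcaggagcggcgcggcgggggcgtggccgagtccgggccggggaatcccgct
*Irf1* +25 kb, Cbfa2t3, chr11:53795280-53795479: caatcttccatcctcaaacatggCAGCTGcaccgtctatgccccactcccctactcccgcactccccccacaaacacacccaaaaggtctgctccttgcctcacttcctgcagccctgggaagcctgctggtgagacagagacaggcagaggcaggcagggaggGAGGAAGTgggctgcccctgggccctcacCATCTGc
The Cbfa2t3 peak chr11:53769751-53770129 (score 25.7) covers this promoter, while the Zbtb1 peak chr11:53770248-53770618 (score 78.6, above 87.3% of the Zbtb1 list) lies past this start and over most of the 250 bases before a second RefSeq start of the gene (chr11:53770223-53770472), with centres 493 bases apart and no shared base. The promoter holds 1 Stat element, found in 7.02% of 32851 RefSeq promoters, and CAGCTG, which is not in capitals there, in 13.0%. At +25 kb the Zbtb1 peak (score 23.0) and the Cbfa2t3 peak (score 47.9) overlapped by 316 bases. The Cbfa2t3 window there holds 1 each of the E-boxes CAGCTG and, further on, CATCTG, with the PU.1 motif between them. *Irf2* had 2 Cbfa2t3 peaks at +111 kb and +113 kb, past its end, with scores of 63.1 and 97.8, the second on an LTR67B element, and *Irf7* had a Zbtb1 peak of score 46.4 at +1 kb inside the gene.

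The pathway around the family was described with lists drawn up for this purpose. Of 8 interferon genes in the list, the ligands whose production Irf3 and Irf7 drive, all 8 were listed at 0 in all 15 libraries. Of the 20 genes of interferons, their receptors, the receptor kinases and feedback inhibitors, 10 were tested and 0 were called in any of the 4 comparisons with sgControl by limma, edgeR or DESeq2, with 0 to 2 of them at an unadjusted p under 0.05. Of 23 sensors, adaptors and kinases upstream of the family 0 were called against sgControl by the 3 tools, with 2 to 4 at an unadjusted p under 0.05, while between sgZbtb1 and sgCbfa2t2 limma called 2 of them, beside 2.27% of all genes, and edgeR and DESeq2 3 (*Ikbkb*, *Irak1* and *Irak4*, named after their values were seen). Of 18 regulators and partners, among them the gene of PU.1, 0 were called against sgControl by the 3 tools, with 7 at an unadjusted p under 0.05 in sgZbtb1 and at most 3 in the other comparisons with sgControl. Over all genes, the share at an unadjusted p under 0.05 was 17.6% in sgZbtb1, and sgCbfa2t3 gave 10.6%, sgCbfa2t2 9.56% and sgLmo2 5.65%.

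Interferon-stimulated genes carry the elements that the family binds, and at most 2 of them were called in any one comparison by limma. Of 57 listed genes 39 were tested. In sgCbfa2t3, 26 of 39 were below sgControl with a median log2 fold change of -0.14, where 51.4% of all genes were lower and the median of all genes was -0.01, and limma and edgeR called 0, DESeq2 1 (*Ifitm1*, named after its values were seen), with 9 at an unadjusted p under 0.05. In sgLmo2, 15 of 39 were lower, where 47.7% of all genes were, with a median of 0.02 and 0 calls by limma, edgeR or DESeq2, and 4 at an unadjusted p under 0.05. In sgZbtb1, 22 of 39 were lower, where 53.3% of all genes were, with a median of -0.13 (all genes -0.03), and 8 reached an unadjusted p under 0.05, beside 17.6% of all genes. Limma called 1, beside 4.79% of all genes. It was *Sp100*, a component of nuclear bodies, at 17.3, 19.6 and 6.87 TPM against 22.6, 28.9 and 27.0 TPM in sgControl (log2 fold change -0.91, SE 0.28, adjusted p = 0.0377), which neither edgeR nor DESeq2 called. In sgCbfa2t2, 22 of 39 were lower, where 49.3% of all genes were, with a median of -0.02 (all genes 0.00) and 0 calls by limma, edgeR or DESeq2, and 4 at an unadjusted p under 0.05. Between sgRNAs limma called 2 of 39 in sgZbtb1 against sgCbfa2t2 (2.27% of all genes), 1 in sgZbtb1 against sgCbfa2t3 (1.13%) and 1 in sgCbfa2t2 against sgCbfa2t3 (0.0779%), the last 2 both *Ifitm1*, named after its values were seen.

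**Figure D5:**
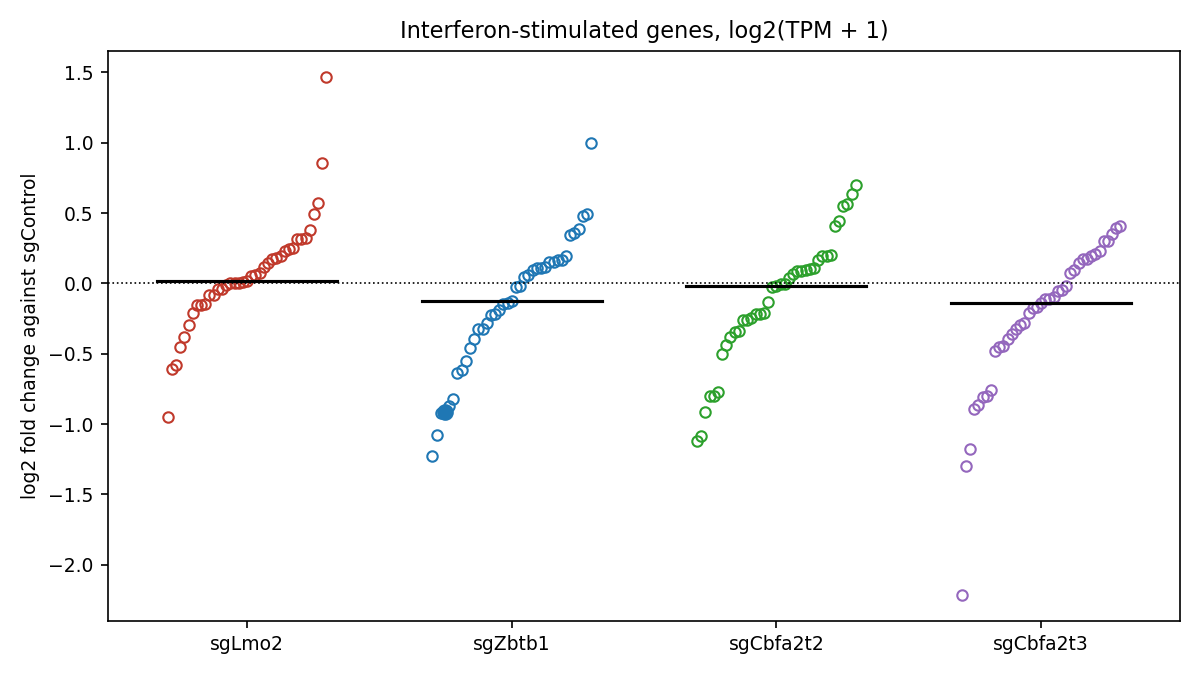
Log2 fold change against sgControl (y axis, log2(TPM + 1) scale) of the 39 interferon-stimulated genes tested, ordered by value within each of the 4 sgRNAs; filled points have a limma adjusted p under 0.05, open points do not, and bars are medians. The medians lie between -0.14 in sgCbfa2t3 and 0.02 in sgLmo2, and 1 point, *Sp100* in sgZbtb1, is filled.

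A pair of gene lists tied to *Irf8* by its role in cell fate were set beside it. Of 20 dendritic cell and monocyte genes tested, limma called 0 in sgLmo2 (0.0173% of all genes) and edgeR 0. DESeq2 called 1, *Tcf4*, named after its values were seen. There 15 were lower and 5 higher, where 47.7% of all genes were lower (median log2 fold change -0.27, all genes 0.01). At an unadjusted p under 0.05 there were 3, beside 5.65% of all genes. The list median was also under that of all genes in sgCbfa2t3 (-0.16, 12 of 20 lower) and sgCbfa2t2 (-0.12, 11 of 20 lower). The *Irf8* log2 fold change was 0.24 and 0.02 in these groups. Of the 27 genes in this list, 10 had an sgControl mean above 10 TPM. In sgZbtb1, 3 of 20 fell, where 2.94% of all genes were called lower. As a whole the list was even there, with 12 genes lower, 8 higher and a median of -0.04 (all genes -0.03). The 3 that fell were *Ccr9*, a chemokine receptor of plasmacytoid dendritic cells and early T-lineage cells, with a log2 fold change of -1.36 (359 ± 45.0 against 923 ± 74.8 TPM, adjusted p = 5.35e-17), *Runx2* with -0.75 (adjusted p = 0.0283) and *Id2*, an inhibitor of E proteins, with -0.60 (adjusted p = 0.00183). *Ccr9* also fell in sgCbfa2t2 by 0.52 and in sgCbfa2t3 by 0.70 on the log2 scale, each time the 1 gene of 20 that limma called, beside 0.147% and 0.537% of all genes, while DESeq2 called 0 in sgCbfa2t2. *Id2* in sgCbfa2t3 lay on the other side, with a log2 fold change of 0.49 that limma did not call (adjusted p = 0.0599) and edgeR and DESeq2 did.

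Of 14 B-lineage genes tested, 4 fell in sgZbtb1, where 2.94% of all genes were called lower. Whatever the test, 7 of 14 were lower there and 7 higher (list median -0.0020, all genes -0.03). In the other 3 comparisons limma called 0, beside 0.0173% of all genes in sgLmo2, 0.147% in sgCbfa2t2 and 0.537% in sgCbfa2t3. There edgeR called 0, and DESeq2 called *Ebf1* in sgCbfa2t2 and sgCbfa2t3. An unadjusted p under 0.05 was reached by 3 of 14 in sgLmo2 (5.65% of all genes), 2 in sgCbfa2t2 (9.56%) and 4 in sgCbfa2t3 (10.6%). In sgZbtb1 *Cd24a*, a surface glycoprotein of immature B cells, fell from 116 ± 19.8 to 42.9 ± 9.57 TPM (log2 fold change -1.42, adjusted p = 4.23e-11). *Ighm*, the immunoglobulin mu heavy chain, fell from 351 ± 91.6 to 207 ± 18.8 TPM (-0.72, adjusted p = 8.04e-05). Reads of *Ebf1* fell from 336 ± 30.5 to 217 ± 6.74 TPM (-0.62, adjusted p = 6.96e-06), in an *Ebf1*-deficient line that still gave 3′ reads of the gene. *Pax5* was called too, from 6.80 to 0.810 TPM, a mean under the 10 TPM required of the named genes and named after its value was seen. In these same libraries *Irf8* stood at 1.33 times sgControl. The summed level of 12 T cell markers was also lower there, at 52.5 to 71.5 TPM against 110 to 128 TPM. *Bcl11b* (log2 fold change -1.82) and *Lck* (-0.87) were called, and *Lck* made up most of the sum, with 83.1 TPM in sgControl. *Cd3d*, *Cd3e*, *Cd3g*, *Cd4*, *Cd8a* and *Trbc2* stood at 3 reads or fewer in all libraries. The part of the lower sum in the B-lineage and dendritic cell counts was not tested.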

How the data were processed

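The authors removed adapters from QuantSeq reads with fastp, mapped them to mm10 with STAR and scaled each library to a fixed total. The counter is not given in the sources used here. The authors deposited values named TPM, which are in effect CPM, since whole reads (within 0.05 read) were recovered for 100% of them. The 1 row that names no gene was dropped. Genes with a mean above 1 TPM (11554) were tested with limma 3.58.1 (R 4.3.3, trended eBayes) on log2(TPM + 1), all 15 libraries in one fit, with Benjamini-Hochberg adjustment over all genes. Adjusted p under 0.05 was the call. The fit was written for TPM and kept, with edgeR 4.0.16 and DESeq2 1.42.0 on recovered reads as alternatives. On 15 simulated libraries with 200 of 11554 genes changed in sgZbtb1, the comparison with sgControl called 139 of the changed genes and 7 unchanged ones. The simulated folds were larger than that of *Irf8* in sgZbtb1, so the recovery of changes of that size was not tested. Replicates are described in the study as biologically independent samples of one cell line, so p-values measure the spread within that line.

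ChIP-seq reads were mapped with Bowtie 1.1.1, keeping reads with several matches, and peaks called with HOMER against a control. The authors deposited those reproducible in both replicates as 1 list per factor with a normalized peak score. Each list also names a nearest gene, used here as given. Depth per peak is unknown. Positions are mm10, and 200-base windows at peak centres were read from GRCm38.p6 with pysam 0.24.0. Promoters and gene models came from RefSeq and GENCODE.

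Members and gene lists were chosen with earlier results of these data known. Named were the 8 members, up to 4 genes per list and comparison with an adjusted p under 0.05 and, in one of the groups, a mean of more than 10 TPM, largest change first, and the 5 genes most correlated with *Irf8*. Alternatives were a pseudocount of 0.1, no filter, a mean above 10 TPM, the 6 libraries alone, the replicate number as a block, size factors, the study's rule on unlogged TPM and leaving out each library. For peaks they were a score of at least 30, 10 kb, 100 kb around the gene, and 2 stricter overlaps.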

Additional observations from a re-analysis of the deposited data

How the results depend on the processing

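The count of members called in sgZbtb1 against sgControl rose from 0 to 1 (*Irf8*) with edgeR, with DESeq2, with median-of-ratios scaling, with the replicate block and with only the 6 libraries compared. In sgCbfa2t3 it fell from 1 (*Irf1*) to 0 without a filter on low values, with the 6 libraries alone, with edgeR and under the study's rule, and ranged from 0 to 1 when single libraries were left out. It stayed at 0 in sgCbfa2t2 under every alternative run. *Irf8* between the pairs of sgZbtb1, sgCbfa2t2 and sgCbfa2t3, fitted with the spread of all groups, kept its direction and stayed short of the threshold under every alternative, with log2 fold changes of 0.33 to 0.46, 0.06 to 0.30 and -0.32 to -0.08 when single libraries were left out. The 18 peaks assigned to members became 8 at a score of at least 30, 4 within 10 kb of a start and 52 within 100 kb of a gene whatever the nearest gene, and overlaps of both factors went from 2 to 1 with centres within 100 bp. The replicate block moved *Irf8* in sgZbtb1 past the threshold (adjusted p = 0.0410 in limma) and changed no other member call. Over all genes tested, 0 of 30 pairs of same-numbered libraries had deviations from their group means correlated above 0.1. Their mean correlation was 0.028, against -0.014 for different numbers. Replicate 1 held the lowest *Irf5* and *Irf4* values in each of the 5 groups. Whether libraries of the same number were handled together was not tested. The genes of the pathway lists called went from 10 to between 7 and 15 (chosen after seeing the data).

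The sign turned for members that were not called. *Irf4* in sgLmo2 went from 0.06 to -0.00044 with edgeR and to -0.0104 with DESeq2, and from -0.27 to 0.49 when single libraries were left out. In the same fits the log2 fold change ranged from -0.0885 to 0.0107 for *Irf1* in sgZbtb1, -0.0814 to 0.0328 for *Irf2* in sgCbfa2t3, -0.173 to 0.0325 for *Irf2* in sgLmo2, -0.0878 to 0.00806 for *Irf3* in sgCbfa2t2, -0.151 to 0.0159 for *Irf3* in sgLmo2, -0.00335 to 0.641 for *Irf7* in sgLmo2, -0.0113 to 0.0624 for *Irf8* in sgCbfa2t2, -0.312 to 0.0118 for *Irf9* in sgZbtb1, -0.149 to 0.0406 for *Irf9* in sgCbfa2t2 and -0.223 to 0.0661 for *Irf9* in sgCbfa2t3. The cause of these changes was not tested. At 3 reads per 1.43 to 1.76 TPM, depth limits *Irf4* and *Irf7*.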
